A study of Mus musculus with 12 samples.

Results

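Voltage-gated sodium and calcium channels are built from a pore-forming protein and smaller accessory subunits, each encoded by a gene family. The members described here are the genes of these families as named in the deposited count files, with antisense transcripts and pseudogenes left out by name. They number 40 of the 55357 genes listed. There are 10 sodium channel alpha genes (Scn names ending in a) and 4 sodium channel beta genes (Scn names ending in b). The calcium channel genes comprise 10 alpha1 genes (Cacna1), 4 alpha2delta genes (Cacna2d), 4 beta genes (Cacnb) and 8 gamma genes (Cacng). They were measured by messenger RNA sequencing in 12 libraries from mouse cerebral cortex at E17.5, dissected together with the hippocampal formation and divided into a caudal and a rostral part. Knockout embryos (NcreEGFRFF, also given as Nestin-EgfrF/F) carried floxed alleles of Egfr, the epidermal growth factor receptor gene, on both chromosomes, and a Nestin-Cre transgene. Nestin drives Cre mainly in neural progenitors and so in their descendants, and other cells of the dissected tissue, such as blood cells, are not its target. Control embryos (EGFRF+, also given as EgfrF/+) had 1 floxed and 1 intact allele. The titles assign 3 libraries each to knockout caudal (embryos 5, 2 and 7), control caudal (embryos 1, 3 and 9), knockout rostral (embryos 5, 2 and 7) and control rostral (embryos 1, 3 and 9), and values below are listed in those orders. A further number in the titles, whose meaning is not given in the sources used here, is 4858 for knockout 5 and control 1 and 4692 for the other embryos. Whether controls carried Cre is not given in the sources used here, so Egfr loss and the presence of Cre cannot be told apart.

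Alpha and alpha1 subunits form the ion pore and sense voltage. Sodium channels carry the upstroke of the action potential, and calcium channels couple depolarization to calcium entry, which in neurons drives transmitter release and signalling to the nucleus. Accessory beta and alpha2delta subunits set how much channel reaches the membrane and how it opens. Most gamma genes carry the calcium channel name by sequence relation, but their proteins are best known as partners of AMPA-type glutamate receptors (TARPs). In late embryonic cortex, newly made neurons begin to fire and the sodium channel set shifts from embryonic to mature genes.

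Libraries held between 25223733 and 30383672 counts and 25682 to 27178 detected genes. Egfr ran from 3.60 to 7.33 CPM (counts scaled to a common library total of 1e+06) in the 6 knockout libraries, against 19.2 to 41.6 CPM in the 6 control libraries, so the groups did not overlap. The part labels are less secure. Nr2f1, a transcription factor that is higher in caudal than rostral cortex, had 248, 71.3 and 348 CPM in knockout caudal and 343, 58.6 and 373 CPM in control caudal libraries. Its rostral values were 97.1, 340.2 and 205 CPM in knockouts and 78.9, 348 and 50.7 CPM in controls. Libraries of titled embryos 2 and 3 thus went against the part in their titles. Control rostral libraries 1 and 3 held both Xist, at 229.7 and 278 CPM, and Y-linked transcripts, at 94.6 and 92 CPM. In each titled embryo but knockout 7, the caudal and rostral libraries differed in sex-linked RNA. Knockout caudal libraries 5 and 2 and control caudal library 9 had Xist at 324, 426 and 253 CPM, and Y-linked sums of at most 1.73 CPM. Their rostral counterparts had Xist at no more than 0.146 CPM, and Y-linked sums of 152, 162 and 172 CPM. Control caudal library 1 had Xist at 0 and Y-linked transcripts at 178 CPM, unlike its rostral counterpart with both, and control caudal library 3 had Xist at 488 CPM and almost no Y-linked RNA. Sums, blocks and fits that leave out embryos therefore rest on titles that the values go against. Mitochondrial genes took 7.25% of counts in knockout rostral library 7, 4.77% in knockout caudal library 5 and down to 1.96% elsewhere. Caudal and rostral below mean the titled part, and counts are also given without titled embryos 2 and 3 and without the libraries holding transcripts of both sexes. Excitatory cortical neuron markers were present in every library (7 of 7 genes above 1 CPM on average), and summed markers of skeletal muscle, heart, sensory ganglion and retina stayed at or below 2.62 CPM in each library. The 5 pituitary genes listed summed to 6.76 to 8.53 CPM in knockout and 0.753 to 1.16 CPM in control libraries. Of these, Gh (growth hormone) had 6.06 to 7.87 CPM in knockouts and 0 in all 6 controls, and Pomc had 0.547 to 0.803 CPM in knockouts and 0.753 to 1.16 CPM in controls. Prl was at 0 in all libraries but knockout caudal 5, and Cga and Tshb were at 0 in all 12. The 4 choroid plexus genes summed to 53.9 CPM in control rostral library 3, 13 CPM in control caudal library 1 and at most 7.24 CPM in the others. The part of either list in the channel values was not tested. In these bulk samples, fewer cells of a type and less RNA per cell cannot be told apart.

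Many members lie side by side in the genome (GRCm39, whole gene spans as the files give them). Scn3a, Scn2a, Scn1a, Scn9a and Scn7a stand in that order within chr2:65287462-66615258, and Scn10a and Scn11a lie next to each other within chr9:119437522-119654522. Cacng1, Cacng4 and Cacng5 share chr11:107594044-107805881, and Cacng7, Cacng8 and Cacng6 share chr7:3381471-3484183. Each of these 4 stretches held at least 1 gene that stayed below 1 CPM in every library (Scn7a, Scn10a and Scn11a, Cacng1, and Cacng6). Of the genes whose caudal values are set out below, Cacna1e spans chr1:154266477-154760247, Cacna2d3 chr14:28626900-29443821, Scn3b chr9:40180513-40202914 and Cacng3 chr7:122269715-122368616.

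The genes on which the comparisons turn differ in the sequence around their starts. RefSeq promoter windows of build GRCm38.p6, with 250 bases before and 50 after the annotated start, matched 30 of the 40 members through 41 promoters. A window can belong to a start inside the gene rather than at its outer end. Windows and the gene spans above are in different builds, and whether the Cacna1e window lies at the outer end was not checked. Members without a match included Cacna1a, Cacna1g, Cacna1h, Cacna2d4, Cacng1, Cacng4, Scn3a and Scn3b. The windows are shown for Cacna1e and Cacna2d3, a pair among the members with the smallest p in caudal libraries, for Cacng5, the member with the smallest p over both parts, and for Scn2a, one of a pair of members with a TATA box. Capitals mark the GC box (GGGCGG, or CCGCCC on the other strand) and the TATA box (TATAAA, or TTTATA on the other strand). Both were searched on both strands. They have no letter in common and cannot overlap each other, while neighbouring GC boxes can share letters, as at the end of the Cacna2d3 window.
Cacna1e promoter, minus strand, chr1:154725871-154726170: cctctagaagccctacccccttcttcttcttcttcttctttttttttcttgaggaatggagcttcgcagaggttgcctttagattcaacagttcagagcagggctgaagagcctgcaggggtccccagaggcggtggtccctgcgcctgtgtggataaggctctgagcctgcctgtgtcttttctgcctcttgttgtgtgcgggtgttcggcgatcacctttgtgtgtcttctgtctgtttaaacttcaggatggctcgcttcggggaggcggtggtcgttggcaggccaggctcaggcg
Cacna2d3 promoter, minus strand, chr14:29721815-29722114: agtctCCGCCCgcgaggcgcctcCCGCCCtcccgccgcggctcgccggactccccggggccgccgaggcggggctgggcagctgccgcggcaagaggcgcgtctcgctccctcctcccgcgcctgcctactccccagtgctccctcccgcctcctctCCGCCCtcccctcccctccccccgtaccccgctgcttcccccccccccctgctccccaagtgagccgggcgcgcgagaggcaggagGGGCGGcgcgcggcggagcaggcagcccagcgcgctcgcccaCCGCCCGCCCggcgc
Cacng5 promoter, minus strand, chr11:107915006-107915305: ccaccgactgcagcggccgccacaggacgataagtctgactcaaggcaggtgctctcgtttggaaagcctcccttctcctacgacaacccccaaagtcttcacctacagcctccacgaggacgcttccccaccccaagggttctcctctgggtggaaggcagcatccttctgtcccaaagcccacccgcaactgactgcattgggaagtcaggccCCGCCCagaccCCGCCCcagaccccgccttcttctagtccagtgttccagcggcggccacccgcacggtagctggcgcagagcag
Cacng5 second promoter, minus strand, chr11:107911313-107911612: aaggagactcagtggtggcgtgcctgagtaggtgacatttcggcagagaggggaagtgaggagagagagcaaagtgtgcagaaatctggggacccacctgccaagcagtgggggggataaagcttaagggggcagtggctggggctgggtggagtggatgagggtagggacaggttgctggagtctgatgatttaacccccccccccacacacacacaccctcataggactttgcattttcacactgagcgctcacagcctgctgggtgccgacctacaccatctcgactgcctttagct
Scn2a promoter, plus strand, chr2:65668436-65668735: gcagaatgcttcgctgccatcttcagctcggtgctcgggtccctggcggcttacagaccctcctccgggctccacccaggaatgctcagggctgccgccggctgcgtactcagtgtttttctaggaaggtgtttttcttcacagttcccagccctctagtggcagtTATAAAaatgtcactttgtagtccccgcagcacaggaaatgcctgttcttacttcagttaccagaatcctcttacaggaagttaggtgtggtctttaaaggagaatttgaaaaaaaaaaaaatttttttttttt
Scn2a second promoter, plus strand, chr2:65620519-65620818: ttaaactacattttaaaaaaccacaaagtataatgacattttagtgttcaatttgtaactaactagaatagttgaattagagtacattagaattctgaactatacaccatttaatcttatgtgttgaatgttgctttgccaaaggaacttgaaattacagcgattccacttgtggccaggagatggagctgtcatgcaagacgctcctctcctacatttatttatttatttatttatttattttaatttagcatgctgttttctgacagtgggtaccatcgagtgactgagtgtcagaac
A GC box stood in 16 of the 41 member promoters (39%), from 15 genes, against 35.7% of all 32851 promoters in the table. A TATA box stood in 2 member promoters (4.88%), of Scn2a and Cacna1d, against 13.6% of all. The cyclic AMP response element TGACGTCA, its own reverse complement, was in 0 of the 41, against 1.79% of all, and the left part of the RE1 site (TTCAGCACC, or GGTGCTGAA on the other strand) in 0, against 0.371% of all. The median GC content was 59.3% in member promoters and 52.7% in all, and the median number of CG dinucleotides was 9 in member promoters and 7 in all. These matches describe letters in a fixed window and say nothing of binding.

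The comparison of knockout with control libraries addresses how loss of Egfr in neural cells alters cortical RNA, and no member passed its threshold in either part. A gene is called here at an adjusted p under 0.05 in edgeR's quasi-likelihood test, with Benjamini-Hochberg adjustment over all genes tested. In caudal libraries, 30 of the 40 members had enough counts to be tested and 0 were called, beside 8 of 16964 genes (0.0472%). Of these 30, 26 had negative and 4 positive log2 fold changes, with a median of -0.27, against -0.0012 over all genes tested. Unadjusted p-values under 0.05 were found for 7 members with lower values in knockouts (3.13% of all genes) and 1 with a higher value (2% of all genes). In rostral libraries, 31 members were tested and 0 were called, beside 0 of 17131 genes (0%), with 20 positive and 11 negative log2 fold changes and a median of 0.03. There, 0 members had an unadjusted p under 0.05, against 1.05% of all genes. With both parts in 1 fit of 12 libraries, 33 members were tested and 0 were called, beside 4 of 17734 genes (0.0226%), and 2 had an unadjusted p under 0.05, against 2.24% of all genes. The Wald test of DESeq2 and limma-voom also called 0 members in each of these comparisons. By DESeq2, 10 members in caudal, 0 in rostral and 2 over both parts had an unadjusted p under 0.05. Over all genes the DESeq2 counts were 779 of 16964, 124 of 17131 and 369 of 17734. By limma-voom the counts were 9, 0 and 2, against 847, 183 and 395 genes.

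The precision of these tests differed between members and parts. In caudal libraries the 95% interval of the log2 fold change lay within a 1.5-fold change either way for 13 of 30 members, and in rostral libraries for 11 of 31. Without titled embryos 2 and 3, 0 members were called in either part, and the medians were -0.14 and -0.05. In those fits 9 caudal and 1 rostral member had an unadjusted p under 0.05, against 740 of 16999 and 315 of 17168 genes. With the title number 4858 or 4692 as a block, 0 members were called, and 10 caudal and 0 rostral members had an unadjusted p under 0.05, against 860 of 17442 and 148 of 17675 genes. Without the 2 libraries holding transcripts of both sexes, control rostral library 9 stood alone in its group, and the rostral median was 0.38. The direction in the rostral part turned on single libraries. Of 32 members tested without knockout rostral library 2, 6 had positive log2 fold changes (median -0.17), and of 32 without knockout rostral library 7, 30 had (median 0.19). Without control rostral library 9, 6 of 31 were positive (median -0.05). Knockout rostral library 7 had the highest summed blood markers, at 11507 CPM against at most 7585 CPM elsewhere. Its summed microglial markers were also highest, at 138 CPM against at most 123 CPM elsewhere. The part of these cells in the rostral direction was not tested. In the caudal part the median was -0.15 without knockout caudal library 5 and -0.16 without control caudal library 3. These fits had 6 and 8 members at an unadjusted p under 0.05, against 1122 of 17288 and 760 of 17217 genes. Here n counts libraries, and p-values measure the spread between libraries.

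**Figure D1:**
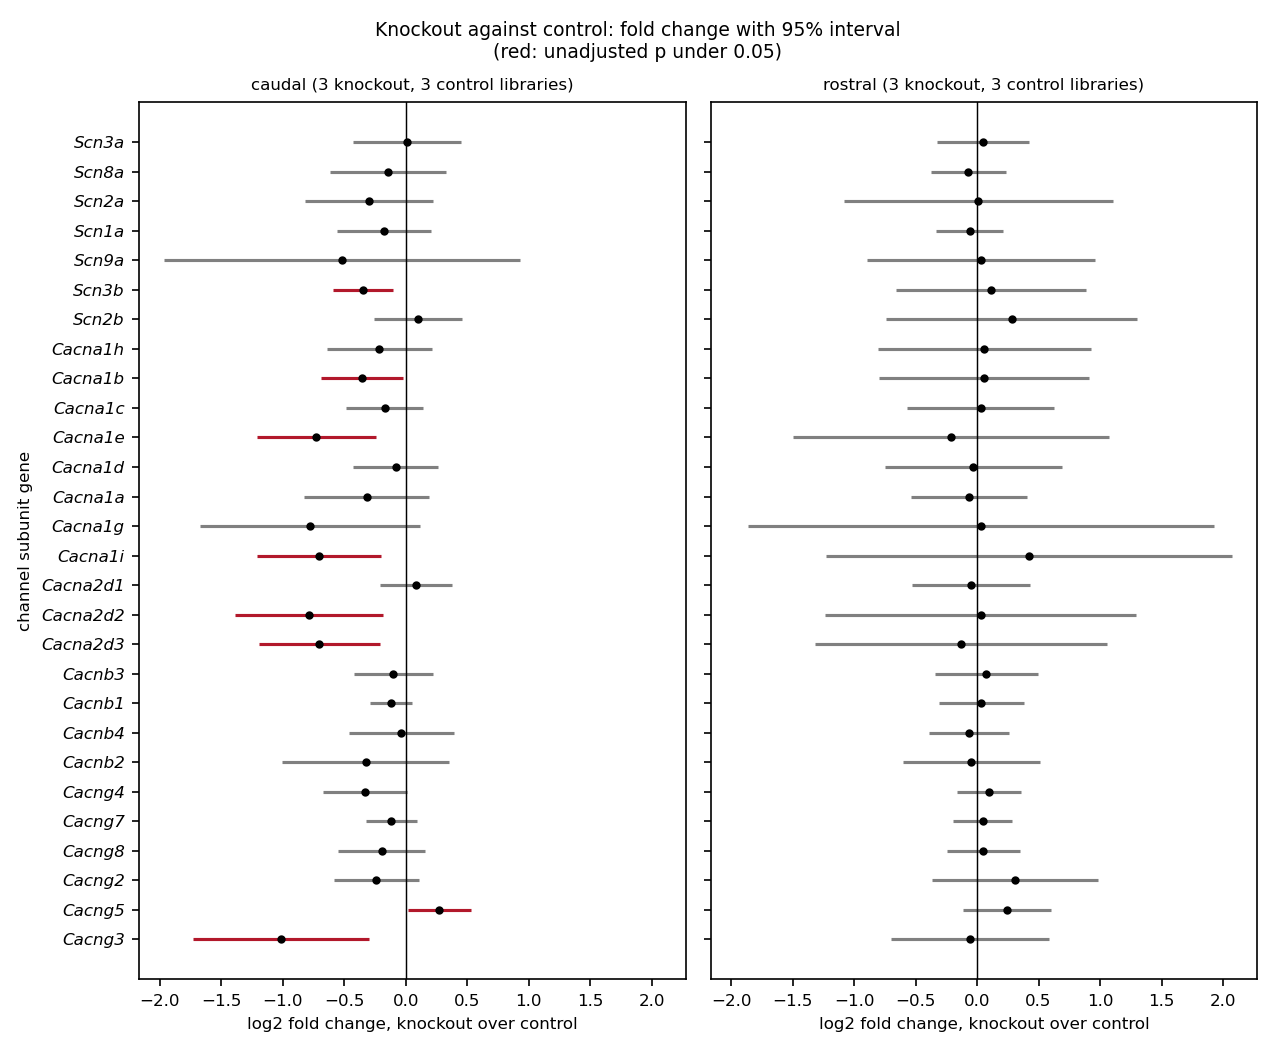
Log2 fold change, knockout over control, with its 95% interval for members with a mean of at least 1 CPM, in caudal libraries on the left and rostral libraries on the right (3 knockout and 3 control libraries in each). Red lines mark an unadjusted p under 0.05, which 8 members had in caudal and 0 in rostral libraries, and none was called after adjustment.

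Among the sodium channel alpha genes, Scn3a, the main embryonic brain sodium channel, was the most abundant per length. It averaged 7.99 ± 1.34 CPM per kilobase of exon (SD, n = 12 libraries) and made up 49.4% of the summed CPM per kilobase of the 10 alpha genes. Scn8a, which serves initial segments and nodes in mature neurons, followed at 3.34 ± 0.632 CPM per kilobase (20.6% of the sum). Scn2a, the sodium channel of early axons, was at 3.29 ± 1.62 CPM per kilobase (19.2%). The Scn8a and Scn2a levels differed by less than their SD over libraries. Scn1a, a gene mostly of inhibitory neurons in later life, held 8.16% of the sum and ran from 11.4 to 17.1 CPM, and Scn9a, known from sensory and autonomic neurons, ran from 1.22 to 6.95 CPM.

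Scn3a had 71.7, 110.4 and 104 CPM in knockout caudal libraries, against 89.6, 114 and 83.9 CPM in control caudal libraries. In rostral libraries Scn3a had 114, 129 and 81.9 CPM in knockouts, against 113, 114 and 94.9 CPM in controls. The groups overlapped in both parts, and the log2 fold changes were 0.01 (SE 0.19, 95% interval -0.43 to 0.45) in caudal and 0.05 (SE 0.16, 95% interval -0.33 to 0.42) in rostral libraries. Scn8a had 35, 54.5 and 43.4 CPM in knockout caudal libraries, against 44.7, 61.2 and 41.6 CPM in control caudal libraries. In rostral libraries Scn8a had 60.7, 63.2 and 45.2 CPM in knockouts, against 61.4, 57.9 and 62.5 CPM in controls. Scn8a was lowest in knockout caudal library 5, and its groups overlapped in both parts. Scn2a had 18.4, 26.7 and 34.3 CPM in knockout caudal libraries, against 29.6, 37.4 and 31.6 CPM in control caudal libraries. In rostral libraries Scn2a had 54.1, 85.6 and 23.5 CPM in knockouts, against 67.5, 65.5 and 33.2 CPM in controls. Scn2a was the most variable of the 3, with a highest value 4.65 times the lowest, and its caudal libraries all lay below 4 of the 6 rostral ones. Its share of the alpha genes ran from 13% to 29.1% between libraries, and averaged 18.3% in knockouts and 20.0% in controls.

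A further 4 sodium alpha genes were near the limit of detection. Scn11a, a channel of pain-sensing neurons, ran from 0.0781 to 0.555 CPM. Scn7a, whose product senses sodium rather than voltage, was at 0 in 3 libraries, Scn10a, the other pain-neuron channel, in 6, and Scn4a, the skeletal muscle channel, in 9. A count of 0 allows up to 3 counts, or 0.0987 to 0.119 CPM depending on the library, for counting error only. Of these 4, Scn11a was tested only in the 12 libraries together, and the other 3 passed the filter on low counts in no comparison.

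**Figure D2:**
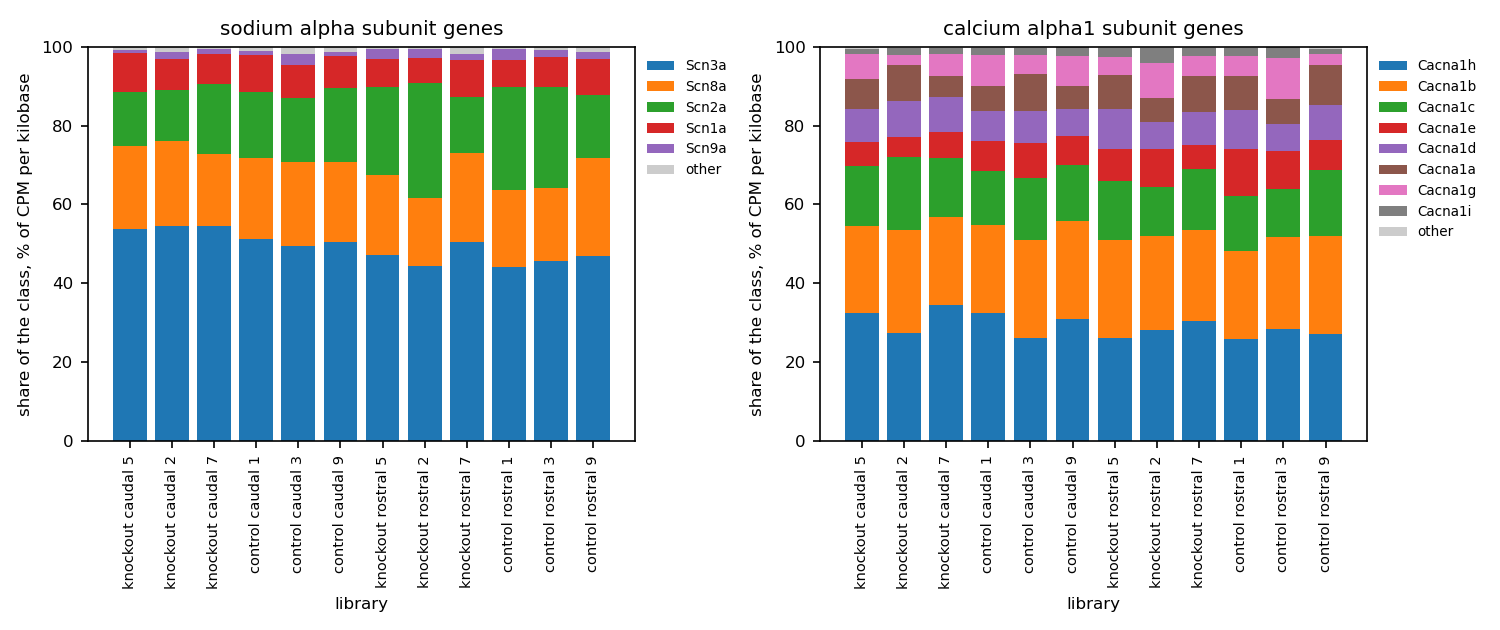
Share of each gene in the summed CPM per kilobase of the sodium channel alpha genes (left) and the calcium channel alpha1 genes (right), one bar per library. Scn3a takes 44.2% to 54.6% of the alpha genes in every library, while Scn2a ranges from 13% to 29.1%, and Cacna1h and Cacna1b are the leading alpha1 genes.

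Sodium channel beta genes were led by Scn3b, a beta subunit that binds alpha subunits without a covalent bond, at 19.5 ± 5.96 CPM per kilobase (SD, n = 12 libraries), which was 90.5% of the class. Scn3b had 76.9, 72.8 and 90.3 CPM in knockout caudal libraries, against 103, 97.1 and 109 CPM in control caudal libraries. All 3 knockout caudal libraries lay below all 3 control caudal ones. The log2 fold change was -0.35 (SE 0.10, 95% interval -0.59 to -0.11), with an unadjusted p of 0.0108 and an adjusted p of 0.756 in edgeR's quasi-likelihood test. In rostral libraries Scn3b had 107, 179 and 88.3 CPM in knockouts, against 125, 156 and 75.2 CPM in controls. The rostral groups overlapped, with embryo 2 of the knockouts and embryo 3 of the controls highest.

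Scn2b was much less abundant, at 1.43 ± 0.479 CPM per kilobase. Scn2b had 6.02, 5.31 and 6.56 CPM in knockout caudal libraries, against 5.67, 5.20 and 6.00 CPM in control caudal libraries. In rostral libraries Scn2b had 6.79, 11.7 and 5.78 CPM in knockouts, against 7.81, 9.67 and 3.20 CPM in controls. Scn2b, whose product is joined to the alpha subunit by a disulfide bond, overlapped between groups in both parts. Scn4b, the other disulfide-linked beta gene, was at 0 in 1 library, did not exceed 0.258 CPM, and was not tested.

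**Figure D3:**
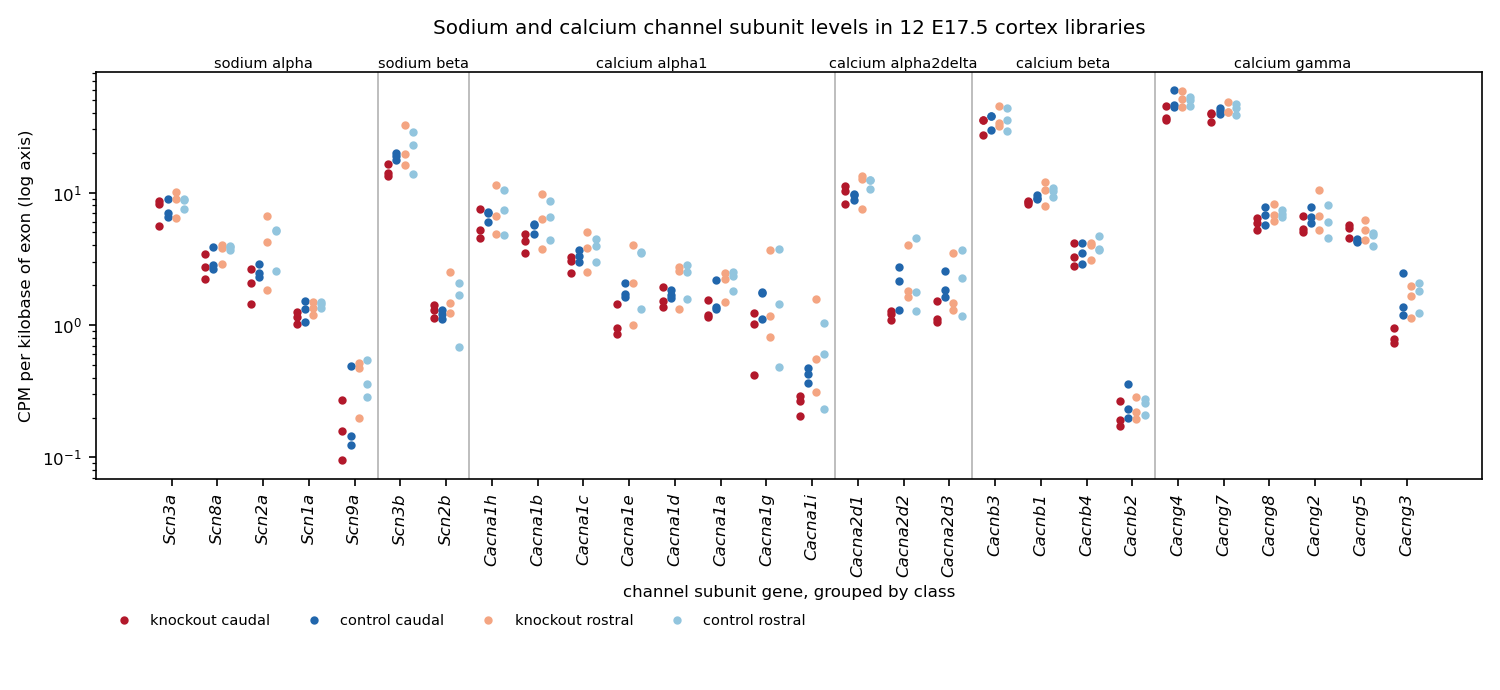
Level of members with a mean of at least 1 CPM, in CPM per kilobase of exon on a log axis, with one point per library coloured by group and genes ordered by class. Cacng4, Cacng7 and Cacnb3 lie highest, above 27 CPM per kilobase in every library, and the points of Cacna1g spread over a range of 8.97 times.

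Calcium channel alpha1 genes of the T, N and L types were all present. Cacna1h (T type, which opens at low voltage) led at 6.92 ± 2.18 CPM per kilobase (SD, n = 12 libraries; 29.1% of the class), followed by Cacna1b (N type, a channel of nerve terminals) at 5.69 ± 1.89 (23.8%) and Cacna1c (L type, which signals to the nucleus) at 3.46 ± 0.772 (14.9%). Cacna1h and Cacna1b differed by less than their SD. Next came Cacna1e (R type) at 2.01 ± 1.10, Cacna1d (L type) at 1.96 ± 0.550, Cacna1a (P/Q type, the main release channel of mature synapses) at 1.80 ± 0.521, and the T-type genes Cacna1g at 1.56 ± 1.10 and Cacna1i at 0.529 ± 0.401 CPM per kilobase. From Cacna1e to Cacna1g neighbours in this order differed by less than the SD of either. Cacna1i lay below Cacna1g by more than its own SD and less than that of Cacna1g, and was the lower of this pair in every library. Cacna1s, the skeletal muscle channel, did not exceed 0.522 CPM and Cacna1f, the retinal channel, 0.297 CPM.

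All 8 alpha1 genes tested in caudal libraries had negative log2 fold changes, from -0.78 to -0.08, and 3 had an unadjusted p under 0.05. Cacna1e had 23.9, 21.5 and 36.1 CPM in knockout caudal libraries, against 40.8, 52 and 43.2 CPM in control caudal libraries. All 3 knockout libraries lay below all 3 control libraries. The log2 fold change of Cacna1e was -0.73 (SE 0.21, 95% interval -1.21 to -0.24), the smallest unadjusted p among members (0.00872), with an adjusted p of 0.74 in edgeR's quasi-likelihood test. In rostral libraries Cacna1e had 52.2, 101 and 25.2 CPM in knockouts, against 88.6, 90.4 and 33.1 CPM in controls. In rostral libraries the groups overlapped, and the log2 fold change was -0.21 (SE 0.54, 95% interval -1.50 to 1.07). Without titled embryos 2 and 3 the caudal log2 fold change of Cacna1e was -0.47.

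Cacna1i had 2.02, 2.65 and 2.89 CPM in knockout caudal libraries, against 3.57, 4.24 and 4.69 CPM in control caudal libraries. These groups did not overlap either. The log2 fold change of Cacna1i was -0.71 (SE 0.22), with an unadjusted p of 0.0124 and an adjusted p of 0.773 in edgeR's quasi-likelihood test. In rostral libraries Cacna1i had 5.46, 15.6 and 3.08 CPM in knockouts, against 5.94, 10.2 and 2.29 CPM in controls. The rostral groups of Cacna1i overlapped, at a log2 fold change of 0.42 (SE 0.69). Cacna1b had 34.8, 43 and 48.4 CPM in knockout caudal libraries, against 48.4, 57.5 and 57.1 CPM in control caudal libraries. The lowest control value lay just under the highest knockout value, and the log2 fold change was -0.36 (SE 0.14, unadjusted p 0.0398, adjusted p 0.969 in edgeR's quasi-likelihood test). In rostral libraries Cacna1b had 62.9, 96.4 and 37 CPM in knockouts, against 64.6, 85.5 and 43.5 CPM in controls. The rostral values of Cacna1b overlapped across the whole range.

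Cacna1h had 50.6, 44.4 and 73 CPM in knockout caudal libraries, against 68.5, 58.7 and 69.7 CPM in control caudal libraries. In rostral libraries Cacna1h had 64.7, 112 and 47.7 CPM in knockouts, against 72.6, 102 and 46.8 CPM in controls. Cacna1h overlapped between groups in both parts, with log2 fold changes of -0.21 (SE 0.18) in caudal and 0.06 (SE 0.36) in rostral libraries. Cacna1c had 53.9, 67 and 70.9 CPM in knockout caudal libraries, against 65, 80.2 and 72.1 CPM in control caudal libraries. In rostral libraries Cacna1c had 83, 111 and 54.5 CPM in knockouts, against 87.1, 96.8 and 65.6 CPM in controls. Cacna1c overlapped likewise. The remaining alpha1 genes ran from 20.1 to 42.9 CPM (Cacna1d), 14.2 to 31 CPM (Cacna1a) and 4.28 to 38.3 CPM (Cacna1g), with no group apart from another in either part.

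The alpha2delta genes, whose products sit outside the cell and carry channels to the surface, were led by Cacna2d1 at 10.6 ± 1.89 CPM per kilobase (SD, n = 12 libraries; 73.5% of the class). Cacna2d1 had 102, 127 and 139.6 CPM in knockout caudal libraries, against 121, 120.2 and 109 CPM in control caudal libraries. In rostral libraries Cacna2d1 had 157, 166 and 92.7 CPM in knockouts, against 154, 154 and 132 CPM in controls. Cacna2d1, a binding site of gabapentin, overlapped in both parts, with log2 fold changes of 0.09 (95% interval -0.21 to 0.38) in caudal and -0.05 (95% interval -0.53 to 0.43) in rostral libraries. Cacna2d2 had 9.64, 10.1 and 8.61 CPM in knockout caudal libraries, against 10.3, 21.8 and 17 CPM in control caudal libraries. Every knockout caudal library lay below every control one, at a log2 fold change of -0.79 (SE 0.26, unadjusted p 0.0168, adjusted p 0.837 in edgeR's quasi-likelihood test). In rostral libraries Cacna2d2 had 14.4, 32.1 and 13 CPM in knockouts, against 14, 35.8 and 10.2 CPM in controls. Cacna2d2, the other gabapentin-binding subunit, was highest in knockout library 2 and control library 3 of the rostral part, and the groups overlapped there.

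Cacna2d3 had 13.3, 9.12 and 9.72 CPM in knockout caudal libraries, against 14.3, 22.3 and 16 CPM in control caudal libraries. The caudal groups of Cacna2d3, a subunit that in mice and flies is known for pain sensing and synapse function, did not overlap. Its log2 fold change was -0.70 (SE 0.21, 95% interval -1.20 to -0.21, unadjusted p 0.0115, adjusted p 0.763 in edgeR's quasi-likelihood test), and -0.38 without titled embryos 2 and 3. In rostral libraries Cacna2d3 had 12.9, 30.6 and 11.4 CPM in knockouts, against 19.8, 32.1 and 10.1 CPM in controls. The rostral groups overlapped, and the log2 fold change there was -0.13 (SE 0.50). Cacna2d4, known from the retina, was at 0 in 1 library and reached 0.201 CPM at most.

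The calcium channel beta genes encode the cytoplasmic subunit that binds the alpha1 pore. Their log2 fold changes, knockout over control, ran from -0.32 to -0.03 in caudal and from -0.07 to 0.08 in rostral libraries. Cacnb3 led at 35.2 ± 5.51 CPM per kilobase (SD, n = 12 libraries; 72.2% of the class), then Cacnb1 at 9.47 ± 1.21 (19.6%) and Cacnb4 at 3.68 ± 0.586, and these levels lay further apart than their SD. Cacnb2, a beta gene of heart and brain, ran from 2.27 to 4.78 CPM. Its caudal means were 2.78 ± 0.678 CPM in knockout and 3.50 ± 1.13 CPM in control libraries (SD). Cacnb3 had 142, 109 and 141 CPM in knockout caudal libraries, against 153, 118 and 152 CPM in control caudal libraries. In rostral libraries Cacnb3 had 135, 182 and 127 CPM in knockouts, against 143, 174 and 116 CPM in controls. Cacnb3 overlapped in both parts, with 95% intervals of the log2 fold change from -0.42 to 0.22 in caudal and -0.34 to 0.50 in rostral libraries. Cacnb1 had 38.3, 37.3 and 38.9 CPM in knockout caudal libraries, against 43.8, 41.2 and 40.4 CPM in control caudal libraries. In rostral libraries Cacnb1 had 47.7, 54.1 and 35.6 CPM in knockouts, against 46.6, 48.8 and 42 CPM in controls. The caudal groups of Cacnb1 did not overlap, but the log2 fold change was only -0.12 (SE 0.07, unadjusted p 0.151 in edgeR's quasi-likelihood test). Cacnb4 had 25.1, 37.5 and 29 CPM in knockout caudal libraries, against 31.3, 37.5 and 25.9 CPM in control caudal libraries. In rostral libraries Cacnb4 had 36, 37.1 and 28 CPM in knockouts, against 41.9, 33.9 and 32.8 CPM in controls. Cacnb4, a gene whose loss gives the lethargic mouse, overlapped in both parts.

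Gamma genes reached the highest levels per length of all members. Cacng4 stood at 47.4 ± 7.29 and Cacng7 at 41.4 ± 3.78 CPM per kilobase (SD, n = 12 libraries), 43.5% and 38.3% of the class, and differed by less than the SD of Cacng4. Both encode AMPA receptor partners. Cacng8 (6.64 ± 0.837), Cacng2 (6.52 ± 1.63) and Cacng5 (4.84 ± 0.661) followed, and Cacng3 was at 1.45 ± 0.545 CPM per kilobase. Cacng1, the gamma subunit of the skeletal muscle channel, ran from 0.191 to 0.916 CPM and its relative Cacng6 was at 0 in 5 libraries, while the summed skeletal muscle markers stayed at or below 1.47 CPM.

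Cacng4 had 127, 161 and 132 CPM in knockout caudal libraries, against 158, 211 and 165 CPM in control caudal libraries. The lowest control value lay below the highest knockout value, with a log2 fold change of -0.33 (SE 0.15, unadjusted p 0.0542 in edgeR's quasi-likelihood test). In rostral libraries Cacng4 had 183, 208 and 158 CPM in knockouts, against 179.8, 187 and 161 CPM in controls. In the rostral part Cacng4 overlapped, at a log2 fold change of 0.10 (SE 0.11). Cacng7 had 98, 83.7 and 95.8 CPM in knockout caudal libraries, against 101, 96.4 and 106 CPM in control caudal libraries. In rostral libraries Cacng7 had 99.4, 118 and 98.6 CPM in knockouts, against 107, 114 and 94.2 CPM in controls. Cacng7 had the narrowest spread of the members above 1 CPM, with a highest value 1.41 times the lowest. Cacng8 had 12.3, 15.1 and 13.8 CPM in knockout caudal libraries, against 13.4, 18.2 and 15.8 CPM in control caudal libraries. In rostral libraries Cacng8 had 15.8, 19.1 and 14.4 CPM in knockouts, against 16.1, 17.2 and 15.5 CPM in controls. Cacng8, a TARP of the hippocampus, overlapped in both parts.

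Cacng5 had 21.8, 20.6 and 17.4 CPM in knockout caudal libraries, against 16.2, 16.5 and 17.1 CPM in control caudal libraries. Cacng5 was the only one of the 30 members tested whose 3 knockout caudal libraries all lay above the 3 control caudal ones. Its log2 fold change was 0.27 (SE 0.11, 95% interval 0.02 to 0.53, unadjusted p 0.0395, adjusted p 0.965 in edgeR's quasi-likelihood test). In rostral libraries Cacng5 had 23.7, 16.9 and 19.8 CPM in knockouts, against 18.4, 18.9 and 15.2 CPM in controls. The rostral groups overlapped, at a log2 fold change of 0.24 (SE 0.15, unadjusted p 0.148). Over both parts the log2 fold change was 0.26 (SE 0.09, 95% interval 0.06 to 0.47), with an unadjusted p of 0.0156 and an adjusted p of 0.999934 in edgeR's quasi-likelihood test.

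Cacng3 had 2.04, 2.63 and 2.19 CPM in knockout caudal libraries, against 3.32, 6.82 and 3.77 CPM in control caudal libraries. Each knockout caudal value of Cacng3, another TARP gene, lay below each control caudal value. The log2 fold change was -1.01 (SE 0.31, 95% interval -1.73 to -0.30, unadjusted p 0.0117, adjusted p 0.763 in edgeR's quasi-likelihood test), and -0.72 without titled embryos 2 and 3. In rostral libraries Cacng3 had 4.61, 5.49 and 3.14 CPM in knockouts, against 5.00, 5.75 and 3.43 CPM in controls. These overlapped, and over both parts the log2 fold change was -0.53 (SE 0.22, unadjusted p 0.0311). Cacng2 had 29.2, 27.9 and 36.6 CPM in knockout caudal libraries, against 35.9, 32.4 and 43.1 CPM in control caudal libraries. In rostral libraries Cacng2 had 36.9, 57.6 and 29 CPM in knockouts, against 33.2, 44.3 and 25.1 CPM in controls. Cacng2 (stargazin) overlapped in both parts, and its rostral log2 fold change of 0.31 (SE 0.28) was -0.0059 without knockout rostral library 2. Cacna1s had 0.494, 0.344 and 0.449 CPM in knockout caudal libraries, against 0.251, 0.240 and 0.154 CPM in control caudal libraries. Its knockout caudal values all lay above its control caudal ones, at counts too low for a test in that part. In rostral libraries Cacna1s had 0.421, 0.192 and 0.286 CPM in knockouts, against 0.305, 0.119 and 0.522 CPM in controls. Cacna1s had the highest positive log2 fold change over both parts, 0.55 (SE 0.35, unadjusted p 0.141), at levels of under 1 CPM in every library.

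**Figure D4:**
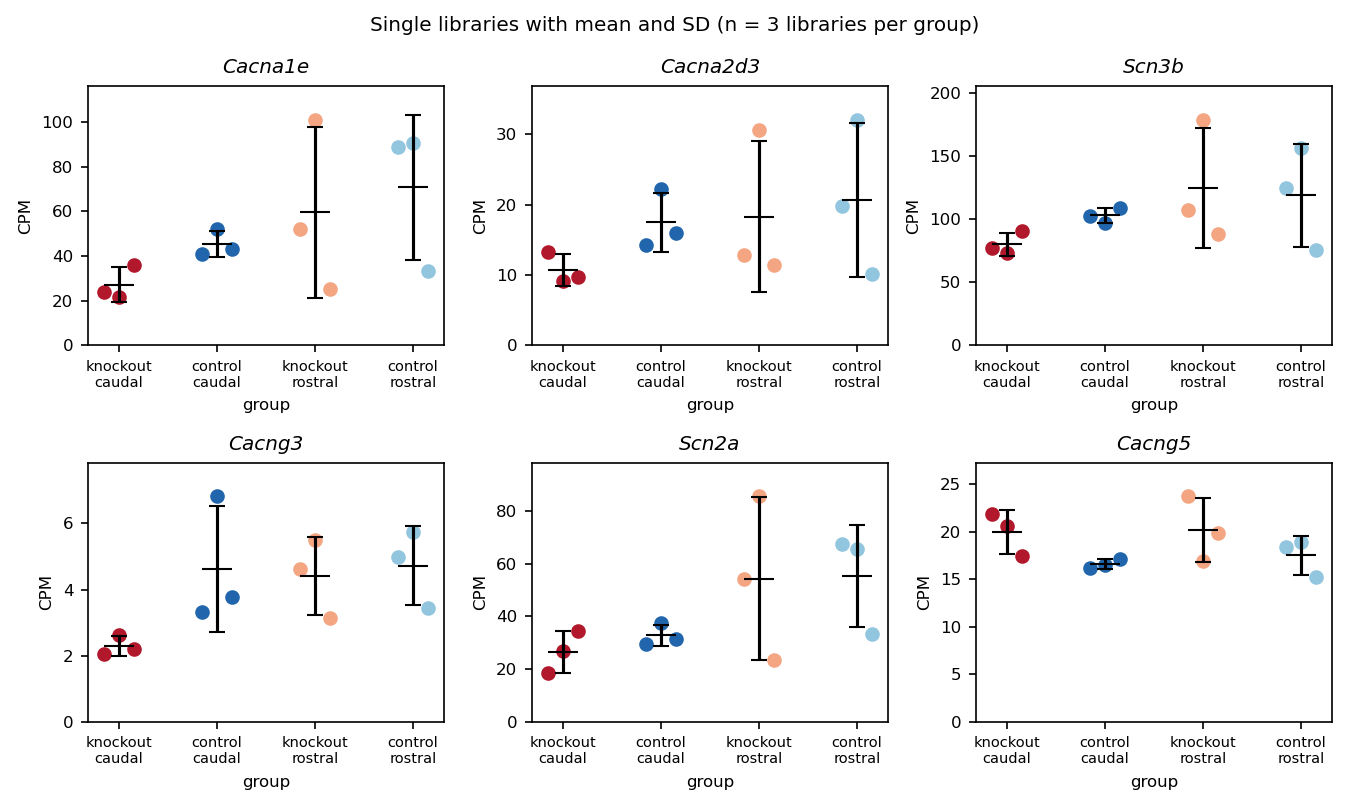
CPM of 6 members in each library by group, with the mean and SD (n = 3 libraries per group). In the caudal part the knockout points of Cacna1e, Cacna2d3, Scn3b and Cacng3 lie below and those of Cacng5 above the control points, while in the rostral part the groups of all 6 genes overlap.

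Groups that did not overlap in caudal libraries were seen for 7 members with lower and 1 with higher knockout values of the 30 tested. Over all 16964 genes tested in that part, 6.14% had all knockout libraries below and 4% all above the control libraries. In rostral libraries 0 of the 31 members tested had groups apart. Over all 17131 genes tested there, 4.75% had all knockout libraries below and 1.45% all above the control libraries. Summed markers of oligodendrocyte precursors, 5 of 5 above 1 CPM on average, moved with the caudal groups, from 36.0 to 63.4 CPM in knockout and 83.9 to 126 CPM in control libraries. The 4 microglial markers likewise summed to 84.4 to 97.4 CPM in knockout caudal libraries and 99.9 to 123 CPM in control caudal libraries. Interneuron markers (10 genes) overlapped, with 199 to 735 CPM in knockout caudal and 373 to 905 CPM in control caudal libraries, as did excitatory neuron markers, with 1918 to 2440 CPM in knockout caudal and 1819 to 2047 CPM in control caudal libraries. None of the markers of these 4 lists was at 0 in all libraries. The part of these cell types in the channel values was not tested.

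Whether the knockout difference itself changed with the part was tested by the interaction in the fit of 12 libraries. Of 33 members, 0 were called, beside 0 of 17734 genes (0%), by edgeR's quasi-likelihood test, and DESeq2 and limma-voom also called 0. At an unadjusted p under 0.05 there was 1 member (Cacng3), against 2.74% of all genes. The count was 2 with the titled embryo as a replicate block and 0 without titled embryos 2 and 3. By DESeq2 it was 2 and by limma-voom 0, against 512 and 475 of the 17734 genes. Without the libraries holding transcripts of both sexes it was 10 (1 positive and 9 negative), in a fit where 1280 of 18809 genes had an unadjusted p under 0.05. The interaction of Cacng3, caudal minus rostral knockout effect, was -0.95 (SE 0.43, adjusted p 0.998) on the log2 scale. The difference in fold change between the parts was thus not shown for any member.

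Between the titled parts, caudal minus rostral, 31 of 33 members had negative log2 fold changes, with a median of -0.26, and 0 were called by edgeR's quasi-likelihood test, beside 0 of 17734 genes (0%). DESeq2 and limma-voom also called 0 members. An unadjusted p under 0.05 was found for 7 members, all lower in caudal libraries, against 5.81% of all genes lower and 4.14% higher. They were Cacna1a (log2 fold change -0.53, SE 0.16), Scn2a (-0.86, SE 0.29), Cacng1 (-1.01, SE 0.36), Cacna1i (-1.07, SE 0.41), Cacna1e (-0.85, SE 0.33), Scn8a (-0.29, SE 0.13) and Cacna1d (-0.41, SE 0.18). Their adjusted p-values in edgeR's quasi-likelihood test started at 0.43, for Cacna1a. Cacna1a had 14.6, 19 and 14.2 CPM in knockout caudal libraries, against 16.3, 26.8 and 16.8 CPM in control caudal libraries. In rostral libraries Cacna1a had 27.6, 30.6 and 18.4 CPM in knockouts, against 31, 29 and 22.2 CPM in controls. Cacna1a overlapped between the parts. Without titled embryos 2 and 3 the count became 8, with 7 lower and 1 higher, in a fit where 2106 of 17759 genes had an unadjusted p under 0.05. It was 0 without the libraries holding transcripts of both sexes, against 407 of 18809 genes.

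The spread between single libraries was wider for these members than the titled groups describe. Over the 29 members with a mean of at least 1 CPM, the highest library was a median 2.17 times the lowest, against 1.54 over all 14776 genes at that level. The ratio was 8.97 for Cacna1g, 7.69 for Cacna1i and 5.70 for Scn9a. Knockout rostral library 2 was the highest of the 12 for 17 of the 29 members, against 2424 of 14776 genes. That library and control rostral library 3 were the highest pair for 16 of 29 members, against 13.5% of all genes. Knockout rostral libraries 5 and 2 and control rostral libraries 1 and 3 all lay above the other 8 libraries for 10 of 29 members, against 6.58% of all genes. These 10 were Cacna1i, Cacna1e, Scn2a, Scn2b, Cacna1b, Cacna1a, Cacna1d, Cacna1c, Cacna2d1 and Cacnb1. These sets of libraries were picked after their values were seen, hold both genotypes and are given as a description only. Summed markers of hippocampus and Cajal-Retzius cells (5 of 5 above 1 CPM on average) were also highest in knockout rostral 2 and control rostral 3, at 1647 and 1585 CPM, with 747 to 1506 CPM in the other 10 libraries. Control caudal 9 and knockout caudal 7 came next, at 1506 and 1491 CPM. Reln, 1 of these 5 genes and a marker of Cajal-Retzius cells, had 516 CPM in knockout rostral 2 and 707 CPM in control rostral 3. Its values in the other 10 libraries are not given here, so Reln does not set these libraries apart. The part of hippocampal and Cajal-Retzius cells in the channel values was not tested. The 4 libraries above the rest differed in Nr2f1. It was high in knockout rostral 2 and control rostral 3 and low in knockout rostral 5 and control rostral 1. Any link of Nr2f1 to the channel values was not tested. Control rostral 1 and 3 are the libraries with transcripts of both sexes.

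**Figure D5:**
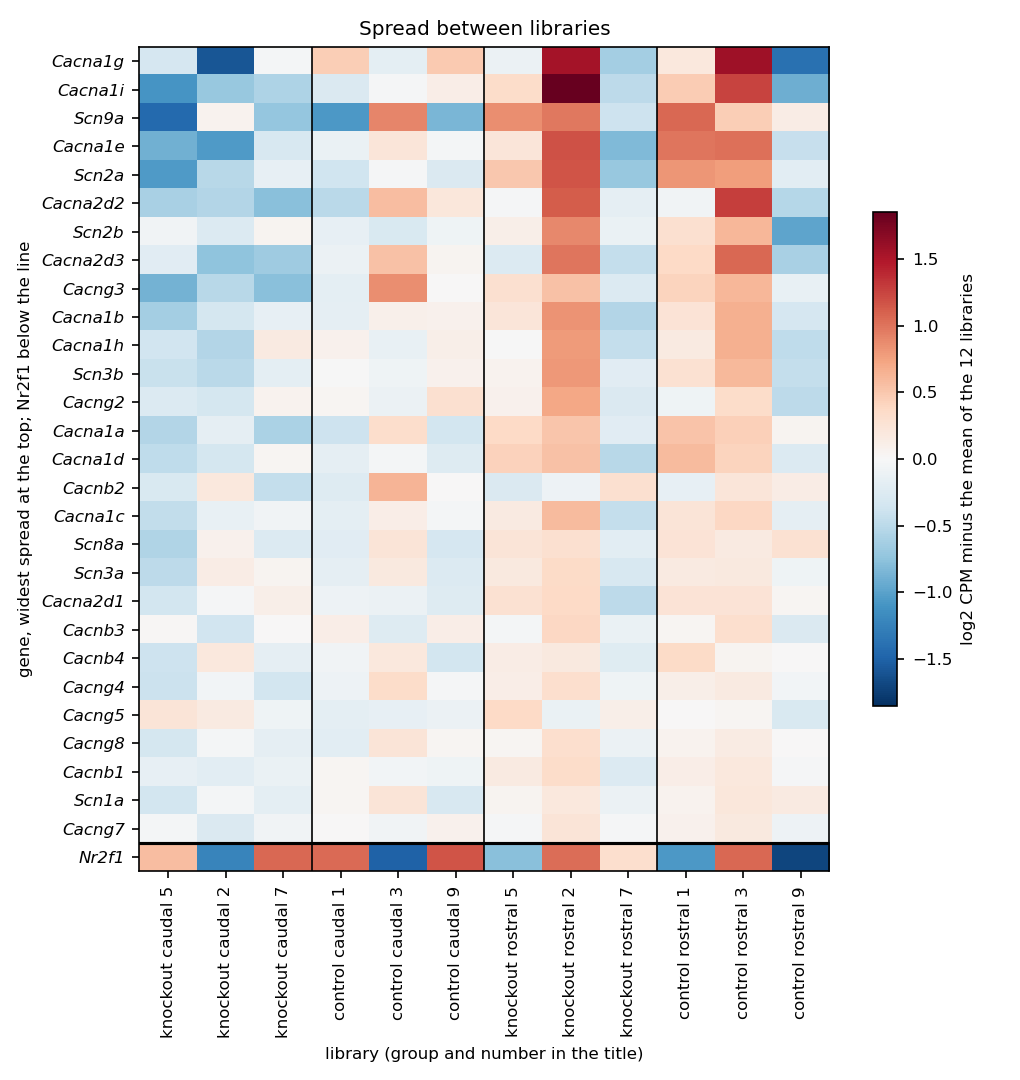
Log2 CPM minus the mean of the 12 libraries (colour) for members with a mean of at least 1 CPM, widest spread at the top, and for Nr2f1 below the line, with libraries in 4 groups of 3. Knockout rostral 2 and control rostral 3 are high for many of the genes shown, such as Cacna1g and Cacna1i, and Nr2f1 does not separate the caudal from the rostral libraries.

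Partner genes of these channels were taken from a list of 42, of which 40 were in the files and 39 were tested. The list holds sodium channel anchors, the sodium leak channel, pacemaker channels, small GTPases that inhibit calcium channels, and release-site proteins. In each of the 5 comparisons 0 of the 39 were called by edgeR's quasi-likelihood test, beside the shares of all genes given above. In caudal libraries 7 partners had an unadjusted p under 0.05, all lower in knockouts, against 3.13% of all genes lower and 2% higher. In rostral libraries 0 partners had, against 1.05% of all genes. Rrad had 0.263, 0.305 and 0.137 CPM in knockout caudal libraries, against 0.598, 0.774 and 0.654 CPM in control caudal libraries. Rrad, one of the inhibiting GTPases, had knockout values all below the control values, at a log2 fold change of -1.46 (SE 0.36, adjusted p 0.661 in edgeR's quasi-likelihood test) and levels under 1 CPM. Syt1 had 45.5, 56.9 and 61.8 CPM in knockout caudal libraries, against 71.7, 103 and 77.8 CPM in control caudal libraries. Syt1, the calcium sensor of transmitter release, did not overlap either, at a log2 fold change of -0.61 (SE 0.17, adjusted p 0.729 in edgeR's quasi-likelihood test). In rostral libraries Syt1 had 81.5, 154 and 62.4 CPM in knockouts, against 91.8, 131 and 66.2 CPM in controls. The rostral groups of Syt1 overlapped. In rostral libraries the smallest p-values belonged to Tspan7 (0.19, SE 0.11) and Calm3 (0.17, SE 0.11), and over both parts to Rem2 (-0.41, SE 0.19) and Rrad (-0.85, SE 0.43), given as log2 fold changes.

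Rimbp2 had 1.25, 1.60 and 0.937 CPM in knockout caudal libraries, against 1.58, 5.35 and 3.34 CPM in control caudal libraries. In rostral libraries Rimbp2 had 8.06, 9.06 and 2.45 CPM in knockouts, against 7.98, 9.91 and 1.75 CPM in controls. Rimbp2, which links calcium channels to the release site, had the lowest p among partners between the parts, at a caudal minus rostral log2 fold change of -1.60 (SE 0.46, adjusted p 0.43 in edgeR's quasi-likelihood test). DESeq2 called it, with an adjusted p of 0.0485. Unc80, of the sodium leak channel complex, followed at -0.63 (SE 0.23). Between the parts 8 partners had an unadjusted p under 0.05, 3 higher and 5 lower in caudal libraries, against 4.14% and 5.81% of all genes.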

How the data were processed

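The authors deposited estimated counts per gene, which the submitters' processing notes credit to STAR 2.7.8a (genome GRCm39) and featureCounts 2.0.3. Per the file headers, reverse-strand fragments were counted against GENCODE M28, with reads shared by several genes or places split into fractions. Of detected genes, 21.6% to 23.9% per library had values that were not whole, and related channel genes could share such reads. Counts were scaled to CPM by the library total, and to CPM per kilobase by the merged exon length in the files. For tests they were rounded and fitted in R 4.3.3 with edgeR 4.0.16 (TMM, filterByExpr, robust quasi-likelihood), with Benjamini-Hochberg adjustment over all genes tested. Counts of 3 served as the floor. The SE is the log2 fold change over the square root of F. Knockout was compared with control in 6 caudal and 6 rostral libraries, and the other contrasts in 12 libraries with 4 group means. The scripts were tested on simulated data. limma 3.58.1 and DESeq2 1.42.0 were alternatives, beside other scaling, no filter, fits without single libraries, embryos or sex-linked genes, summed parts and blocks.

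Values in every library are given for the 3 most abundant reported members per length of each class with a mean of at least 1 CPM, and for the 3 with the smallest p in each knockout comparison; other members given that way were chosen after their values were seen. Of the partners, the 2 with the smallest p are named. The members and lists were chosen with earlier results of these data known. Titles give the caudal and rostral library of an embryo 1 number. Over 1000 autosomal genes, the deviations of same-numbered libraries from their group means correlated between -0.71 and -0.26, with 0 of 6 over 0.1, and the main fits hold no block. Sex-linked RNA also went against these titles in 5 of 6 embryos, on which the blocks, random effects, sums and fits without an embryo rest. Replicates differed by far more than sampling noise. The p-values measure the spread between libraries. GRCm38.p6 served for promoter windows only. Some members count in the totals but are not reported here.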

Additional observations from a re-analysis of the deposited data

How the results depend on the processing

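Under each of the 75 alternative fits, 0 members were called. The number with an unadjusted p under 0.05 moved more, and the count over all genes, given in brackets except for the interaction, moved too. Fits without the libraries holding transcripts of both sexes leave control rostral library 9 alone in its group. Their counts are left out here except for the interaction, where the control rostral group rests on that library alone and no conclusion is drawn. In rostral libraries the number was 0 (180 of 17131), and 1 without titled embryos 2 and 3 (315 of 17168). It ran from 0 to 1 when single libraries were left out, with 1 without knockout rostral library 2 (350 of 17466). In caudal libraries it was 8 (871 of 16964), and 3 when that contrast was taken from the fit of 12 libraries (651 of 17734). No caudal value could be had without the libraries of both sexes, which are rostral. Over both parts the number was 2 (397 of 17734), and 1 without titled embryos 2 and 3 (504 of 17759). In sums of the titled parts it was also 1 (643 of 18937). When single embryos were left out it ran from 0 without embryo 5 (238 of 18055) to 4 without embryo 2 (853 of 18040). Between parts it was 7 (1765 of 17734), and 3 by limma-voom with titled embryos as random effects (930 of 17734). It ran from 1 without embryo 1 (770 of 18085) to 13 without embryo 7 (2361 of 18049). For the interaction it was 1, with 0 under DESeq2's size factors, limma-voom, limma-voom with random effects and without titled embryos 2 and 3, 2 under the DESeq2 Wald test, 3 with no filter, 10 without the libraries of both sexes, and 0 to 4 when embryos were left out. The replicate block gave 5 between parts (1087 of 18196) and 2 for the interaction, and called 0 members. The causes of these shifts were not tested.

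Of the log2 fold changes of named genes under the alternatives, 472 kept their direction and call. Rimbp2 passed the threshold between parts under DESeq2 (adjusted p 0.0485), and Cacng2 in rostral libraries was -0.0059 without knockout rostral library 2, against 0.31 with it, and ran up to 0.52 when other single libraries were left out. Over all genes, calls numbered 8 in caudal libraries and 2 to 77 under the alternatives (77 by DESeq2), 0 and 0 to 4 in rostral libraries, 4 and 1 to 15 over both parts, 0 and 0 to 83 between parts (83 by DESeq2), and 0 and 0 to 6 for the interaction. Members at or under the floor of 3 counts cannot show a difference at this depth.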
